A study of Mus musculus with 4 samples.

Results

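Single cells of the medial ganglionic eminence (MGE), the ventral forebrain zone where many GABAergic neurons are born, were divided into progenitors and neurons, and the classes were compared within each library. Of 19032 cells, 7006 fell in the classes, 2095 as progenitors and 4911 as neurons. The cells came from e14.5 mouse embryos of heterozygous St18 breeders of a C57/BL6 ICR mix, and the MGE of embryos that shared a genotype was pooled. There were 2 libraries labelled St18(-/-), called null here, and 2 labelled wildtype, called WT. The null allele came from germline recombination with E2a-Cre, so all cells of a null embryo carried it, and a transcript can persist from it. How many embryos entered a pool, and of which sex, was not stated, so p-values measure the spread between these 4 pools.

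The classes were chosen by the counts of 8 genes in each cell. A barcode needed at least 3000 unique molecular identifiers (UMIs), of which at most 10% were mitochondrial. A progenitor held at least 3 UMIs of Hes1, Hes5 and Nes together and at most 1 UMI of Stmn2, Gap43 and Mapt. A neuron held at least 5 UMIs of Stmn2, Gap43 and Mapt and at most 1 UMI of Hes1, Hes5, Nes, Mki67 and Top2a. The remaining 12026 cells met neither rule, so the classes are the ends of a range and not types with a natural border.

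Progenitors of the MGE are radial glia, which line the ventricle and divide, and their dividing daughters. Notch ligands on a differentiating cell hold its neighbours in the progenitor state through Hes genes. A cell that becomes a neuron switches on Lhx factors, GABA synthesis and the proteins of a growing axon. MGE neurons become interneurons of cortex and striatum or projection neurons of the ventral forebrain.

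Null replicates 1 and 2 gave 810 and 457 progenitors, and WT replicates 1 and 2 gave 521 and 307. Neurons numbered 1533, 756, 1224 and 1398 in the same order, which holds for every list of 4 values here. The libraries held 70991150 to 92984713 UMIs in all, the progenitor sums 2879732 to 8427473 and the neuron sums 6617142 to 10100655. Between any 2 libraries, 0 to 2 barcodes of these cells were shared. Progenitors were the deeper cells, with medians of 9694, 12891, 9192 and 8948 UMIs against 6119, 8433.5, 5760.5 and 5628 in neurons, a ratio of 1.53 to 1.60. The rule is set in UMIs, so depth also decides which cells can pass it, and the ratio is not read as a trait of progenitors. Levels are given in CPM, a gene's UMIs per 1000000 UMIs of its class and library.

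**Figure D1:**
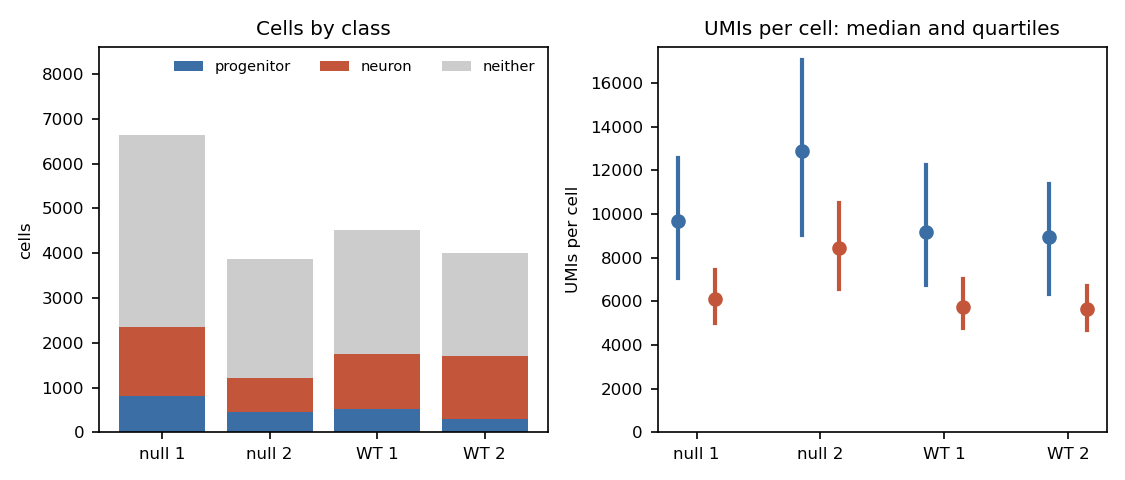
Cells per library (left, bars stacked by class, grey for cells that met neither rule) and UMIs per cell (right, blue for progenitors and red for neurons, points for medians and lines for quartiles). Median depth is 8948 to 12891 UMIs in progenitors and 5628 to 8433.5 in neurons, with progenitors above neurons in each library. Depth also decides which cells can pass a rule set in UMIs.

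The 8 genes of the rule describe the classes and are no finding. Hes5, a Notch target, stood at 660.1 to 866 CPM in progenitors and 9.22 to 14.2 in neurons. Nes, an intermediate filament of neural stem cells, stood at 378 to 586 and 13.9 to 19.4 CPM. Stmn2 and Gap43, proteins of growing axons, stood at 1184 to 1826 and 414 to 561 CPM in neurons and at 17.6 to 27.1 and 12.1 to 16.3 in progenitors. At the median, a progenitor held 9 or 10 UMIs of Hes1, Hes5 and Nes, and a neuron 11 or 12 UMIs of Stmn2, Gap43 and Mapt.

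Genes that the rule did not use went with both names. The radial glial markers Vim, Fabp7, Slc1a3, Sox2 and Sox9 summed to 3483 to 3792 CPM in progenitors and 631 to 755 in neurons. Dcx, Tubb3, Map2, Gad1 and Gad2, genes of young GABAergic neurons, summed to 3940 to 4744 CPM in neurons and 457 to 745 in progenitors. Neither sum overlapped between the classes.

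Near the limits of the rule the cells graded into one another. Progenitors with exactly 3 UMIs of the rule's progenitor genes were 11.1% to 16.5% of the class, and 49.1% to 52.3% held 1 UMI of a neuron gene. Just inside this limit the radial glial markers summed to 1501 to 2076 CPM, and just outside, with exactly 2 UMIs, to 1354 to 1897. Neurons with exactly 5 UMIs were 8.87% to 12.1% of the class, with neuronal markers at 3660 to 4651 CPM against 3800 to 4546 in cells with exactly 4. Within a library, the radial glial sum was higher just inside its limit than just outside in all 4 libraries (2072 and 1545, 1501 and 1475, 2076 and 1354, 1949 and 1897 CPM). The neuronal sum was higher just inside in 2 of 4.

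Markers of cell types from outside the neural tissue, and of oligodendrocyte precursors, were counted cell by cell. At least 3 UMIs of erythroid, microglial, endothelial, pericyte and meningeal or oligodendrocyte precursor genes were found in 4.44% to 8.75% of progenitors and 2.86% to 5.42% of neurons. Most of these were erythroid, with 2.93% to 6.35% of progenitors and 2.50% to 5.16% of neurons. Among progenitors, 1 to 4 cells a library passed for microglia, 1 to 3 for endothelium, 1 to 3 for pericytes and meninges and 4 to 9 for oligodendrocyte precursors. The 8 erythroid genes summed to 660, 709, 7560 and 2478 CPM in progenitors and 93.4, 93.5, 122 and 1571 in neurons, and the 8 microglial genes to 94.5, 7.15, 2.33 and 278 CPM in progenitors and 1.74 to 6.52 in neurons. Fits without all these cells are named below for some genes. Barcodes under 100 UMIs, taken as free RNA, held 2.18% to 3.24% of each library's UMIs, and the rule removes cells rich in both gene groups, but no doublet caller was run.

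The share of neurons among the cells of both classes was 65.4% and 62.3% in the null libraries and 70.1% and 82.0% in the WT libraries. Exact Clopper-Pearson intervals (95%) were 63.5% to 67.4%, 59.5% to 65.1%, 67.9% to 72.3% and 80.1% to 83.8%, and cover counting error only. The means of 63.9% ± 2.19 and 76.1% ± 8.38 (SD, n = 2 each) differed by -12.2 percentage points, null minus WT, with a two-sided exact permutation p of 0.333, the smallest that 2 against 2 libraries allow. The difference was -18.1 points without WT replicate 1 and -6.27 points without WT replicate 2. The rule left out cells with at least 5 UMIs of the neuron genes but 2 or more of its progenitor or dividing-cell genes. These were 21.2% and 25.1% of all cells in the null libraries and 13.9% and 16.9% in the WT libraries. Their part in the difference was not tested, so the share is not read as the neuron content of the tissue.

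St18, the targeted zinc finger gene (ENSMUSG00000033740, chr1:6487231-6860940, GRCm38), stood at 6.88, 27.3, 10.9 and 7.29 CPM in progenitors and 13.8, 47.8, 18.8 and 36.6 in neurons. The library labelled null replicate 2 was the highest in both classes, against its label, and null replicate 1 the lowest. Because a transcript can persist from the deleted allele, its level is only a partial check of the labels. The paper describes PCR genotyping of embryos at dissection, and lower St18 transcript in null than in WT neurons, which it chose by clustering. St18 was higher in neurons in each library, with a log2 fold change of 1.07 ± 0.70 (SD over 4 libraries, Benjamini-Hochberg adjusted p = 2.03e-07 by the quasi-likelihood test of edgeR) and of 1.26 without null replicate 2, although the classes overlapped across libraries.

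Neurons were compared with progenitors over 12512 genes outside the rule, with the library as a block. Most genes differed, with 4949 (39.6%) higher in neurons and 4957 (39.6%) higher in progenitors at an adjusted p under 0.05, so that a call alone says little about a gene. Without null replicate 2 the counts were 4858 and 4841. Calls of at least 2-fold, counted after the data had been seen, numbered 2083 in neurons (16.6%) and 2258 in progenitors (18.0%). Counts of list members below are to be read beside these shares. The median log2 fold change over all genes was 0.02. The cells had been separated on genes that go with many others, and the test says only that a difference repeated over the 4 libraries. From here, a value with ± is the log2 fold change of neuron over progenitor with the SD over the 4 libraries.

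Among the 15 genes that led in neurons were a peptide, transcription factors and genes of axons and synapses. Sst, the peptide somatostatin, stood at 192, 195, 396 and 254 CPM in neurons and 3.204, 1.75, 3.88 and 4.51 in progenitors (6.29 ± 0.52). Ebf1, a transcription factor of striatal and other neurons, stood at 474, 499, 512 and 281 CPM in neurons and 6.17, 4.29, 11.8 and 12.2 in progenitors (5.86 ± 1.06). WT replicate 1 was highest in neurons for both genes, and WT replicate 2 lowest for Ebf1. Zfp503, a zinc finger gene, and Rmst, a long non-coding RNA, had 5.06 ± 0.45 and 4.99 ± 0.47. Ina, a neurofilament protein, stood at 546, 507, 420.2 and 454 CPM in neurons and 16.1, 14.0, 16.9 and 17.0 in progenitors (4.94 ± 0.32). Syt1, the calcium sensor of vesicle release, stood at 205, 246, 219 and 216 CPM in neurons and 7.83, 8.26, 5.24 and 9.72 in progenitors (4.86 ± 0.38). Ina and Syt1 were near even among the 4 neuron sums. Cacng2, an auxiliary subunit of AMPA receptors, had 4.85 ± 0.54, Actl6b, the neuronal actin-like subunit of the BAF chromatin complex, 4.75 ± 0.28, and Myt1l, a neuronal relative of St18, 4.72 ± 0.27. Plk2, Islr2, Snhg11, Calb1, Jph4 and Adarb2 completed the 15 with 4.55 to 4.69.

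Among the 15 genes that led in progenitors were cell cycle genes and genes of radial glia. The neuron rule limits Mki67 and Top2a, so the cell cycle genes cannot be told apart from the choice of cells. Esco2, which sets sister chromatid cohesion in S phase, stood at 124, 147, 121 and 139.9 CPM in progenitors and 4.95, 2.87, 2.41 and 2.90 in neurons (-5.27 ± 0.50). Kif23, a motor of cytokinesis, stood at 149, 162, 139 and 129.9 and 5.64, 4.68, 4.69 and 5.43 CPM (-4.81 ± 0.19). Dtl, which acts in replication, and Aspm, of the spindle pole, had -4.97 ± 0.45 and -4.79 ± 0.30. Slc1a3, the glutamate transporter of radial glia, stood at 95.05, 112, 69.4 and 92.7 CPM in progenitors and 3.66, 3.02, 1.34 and 2.05 in neurons (-5.15 ± 0.45). The secreted or surface proteins Sparc, Mfge8, Pdpn and Vcam1 had -4.75 to -5.02, and the endothelin receptor Ednrb -4.71 ± 0.47. Plce1, Plpp3, Rgcc, Creb5 and Iqgap2 completed the 15 with -4.71 to -5.01. Without the cells that held UMIs of other types, the 15 progenitor genes had -4.71 to -5.28 and the 15 neuron genes 4.49 to 6.36.

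**Figure D2:**
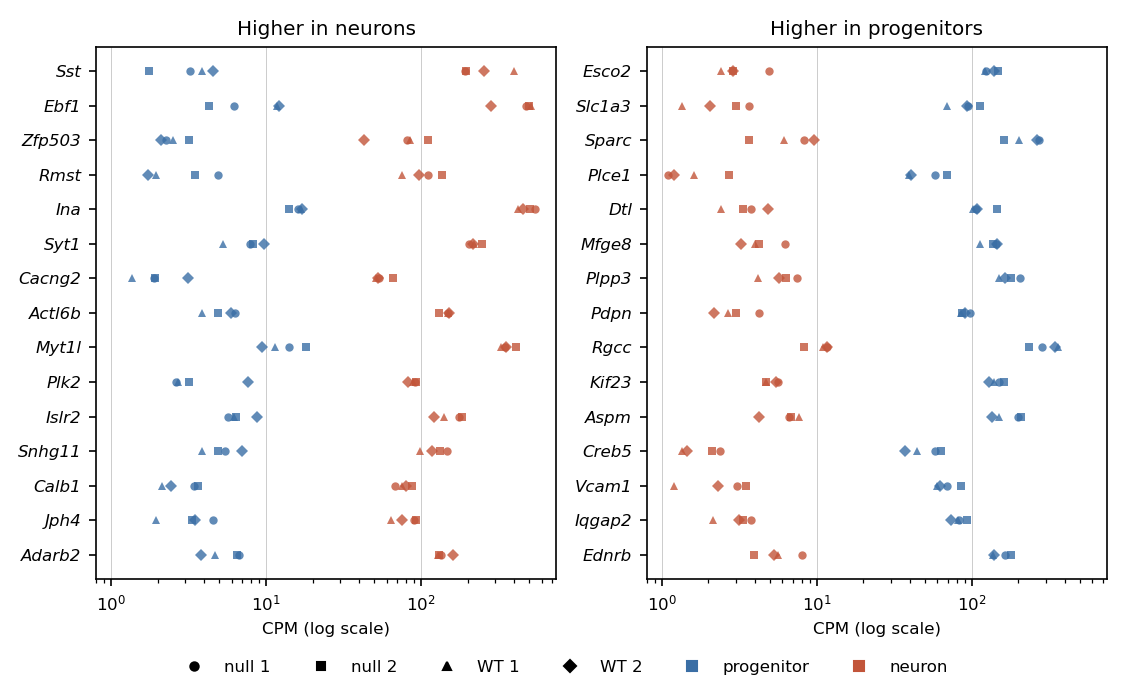
CPM on a log axis for the 15 genes with the largest difference in each direction, with a marker shape for each library, blue for progenitors and red for neurons. The 2 classes do not overlap for any of the 30 genes. The genes were picked for a large difference of the same sign in every library, so the lack of overlap is no separate finding.

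Of 18 radial glial genes tested, 17 were higher in progenitors and none in neurons, beside 39.6% of all genes in each direction. The median of the 18 was -3.03. The rule uses Hes1, Hes5 and Nes, so this count cannot be told apart from the choice of cells. Fabp7, the brain lipid-binding protein, stood at 1397, 1348, 1673 and 1696 CPM in progenitors and 70.0, 58.3, 73.8 and 96.5 in neurons (-4.38 ± 0.17), and the filament gene Vim had -2.55 ± 0.14. Sox9, a stem cell factor, had -2.91 ± 0.12. Sox2, another, stood at 726, 711, 525 and 556 CPM in progenitors and still at 436, 480.4, 345 and 320.1 in neurons (-0.68 ± 0.14), where each library's level lay above the 212 to 382 CPM of its barcodes with free RNA. Pax6 did not pass the test (-0.05 ± 0.93). Its value was 0.64 without null replicate 2. Progenitors with at least 2 UMIs of Mki67 and Top2a were 72.9% to 83.6% of the class. The 12 structural and signalling genes of radial glia summed to 5434, 5745, 5732 and 5694 CPM in them. In progenitors with no UMI of Mki67 or Top2a, 8.53% to 18.0% of the class, the sums were 12061, 9900, 10334 and 13186 CPM. In neurons they were 647 to 794 CPM. The sums of these groups of progenitors did not overlap, but progenitors that lay between their limits were in neither group. No share over all genes was computed. Microglial genes summed to 658, 0, 0 and 3.29 CPM in progenitors with no such UMI and 40.1, 7.95, 2.69 and 341 in those with at least 2. The 5 GABA genes summed to 214, 402, 194 and 161 CPM in the former and 148, 172, 122 and 95.5 in the latter. Neither group is read as 1 cell type.

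Of 22 Notch pathway genes, 16 were higher in progenitors and 4 in neurons, beside 39.6% of all genes in each direction. The median of the 22 was -0.96. The rule uses Hes1 and Hes5, through which Notch acts, so these counts cannot be told apart from the choice of cells. All 3 receptors were higher in progenitors. Notch1 stood at 346, 406, 249.3 and 267 CPM in progenitors and 30.6, 35.2, 25.7 and 28.0 in neurons (-3.40 ± 0.10), and Notch2 and Notch3 had -3.91 ± 0.31 and -4.08 ± 0.28. Among the ligands, Jag1 had -3.70 ± 0.53, Dll1 -1.33 ± 0.31 and Dll3 -0.92 ± 0.27, while the non-canonical ligand Dlk1 did not pass (-0.05 ± 0.48). Lfng and Mfng, which add sugars to Notch receptors, had -4.77 ± 0.45 and -0.75 ± 0.04. Nrarp, a target that feeds back on the pathway, had -4.15 ± 0.21, and the target Hey1 -3.25 ± 0.34. Of the Id genes, inhibitors of bHLH factors, Id1 and Id3 were higher in progenitors (-3.95 ± 0.32 and -1.98 ± 0.58) and Id2 and Id4 in neurons (0.28 ± 0.34 and 0.34 ± 0.20). The call of Id2 was lost without null replicate 2, at 0.16. Hes6, which opposes Hes1, had -0.99 ± 0.10. Numb, an inhibitor of Notch, had -0.62 ± 0.12 and its relative Numbl 0.47 ± 0.13, so the pair took opposite directions.

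Sonic hedgehog, which patterns the ventral forebrain, is received by Ptch1 and Smo and passed on by Gli factors. Of 9 genes tested, 7 were higher in progenitors and none in neurons, beside 39.6% of all genes in each direction. The median of the 9 was -2.72. With cells thinned to 3000 UMIs, 5 of the genes were still tested and 4 were higher in progenitors. Ptch1 stood at 102, 121, 81.5 and 98.3 CPM in progenitors and 41.3, 45.5, 34.3 and 34.0 in neurons (-1.37 ± 0.13), and Smo had -1.33 ± 0.11. The effectors Gli1, Gli2 and Gli3 had -3.75 ± 0.43, -2.72 ± 1.03 and -3.96 ± 0.57, and Hhip, a decoy receptor induced by the signal, -3.57 ± 0.47.

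All 21 DNA replication genes and all 20 mitosis genes were at least 2-fold higher in progenitors, with medians of -2.82 and -4.01. The neuron rule bars cells with more than 1 UMI of the rule's progenitor genes, Mki67 and Top2a, so these counts cannot be told apart from the choice of cells. Kif11, a spindle motor, stood at 258, 302, 241 and 213 CPM in progenitors and 11.98, 12.2, 11.5 and 6.40 in neurons (-4.59 ± 0.32). Cdk1, the mitotic kinase, and its cyclin Ccnb1 had -3.94 ± 0.16 and -3.89 ± 0.19, and Pcna, the replication clamp, -2.69 ± 0.11.

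The promoters of 5 of these genes are printed as examples of promoters that hold the letters counted here. RefSeq (GRCm38.p6) gave the 250 bases before to 50 after the start for 9611 of the 12512 genes tested (12383 promoters), for 16 of 20 mitosis genes (17 promoters) and for 18 of 21 replication genes (22 promoters). Motifs were searched on both strands. The letters TTTGAA, known as the cell cycle genes homology region (CHR), were in 12 of 17 mitosis promoters (70.6%) and in 11.6% of the promoters of all genes tested. CHR together with a CCAAT box, the letters CCAAT, was in 11 of 17 (64.7%) and in 4.76% of all. E2F letters, spelled TTTCCCGC, TTTGGCGC, TTTCGCGC or TTTGCCGC, were in 8 of 22 replication promoters (36.4%) and in 4.11% of all, so most replication promoters held none. CHR was in 2 of 22 replication promoters (9.09%), and E2F letters were in 1 of 17 mitosis promoters (5.88%). The letters TGGGAA, read by the Notch effector RBPJ, were in 5 of 23 promoters of the Notch list (21.7%), 8 of 22 of the replication list (36.4%), 5 of 17 of the mitosis list (29.4%) and 22.6% of all. The E-box CAGCTG was in 3 of 22 replication promoters (13.6%), 2 of 17 mitosis promoters (11.8%), 8 of 23 Notch promoters (34.8%) and 14.99% of all. The homeodomain letters TAATTA were in 0 promoters of these 3 lists and in only 2.455% of all, so no absence is read from the 0. A match is a description of letters and not a bound site. Capitals mark CHR and CCAAT in Kif11, Prc1 and Cenpf and E2F letters in Mcm3 and Cdt1, each on either strand.
Kif11: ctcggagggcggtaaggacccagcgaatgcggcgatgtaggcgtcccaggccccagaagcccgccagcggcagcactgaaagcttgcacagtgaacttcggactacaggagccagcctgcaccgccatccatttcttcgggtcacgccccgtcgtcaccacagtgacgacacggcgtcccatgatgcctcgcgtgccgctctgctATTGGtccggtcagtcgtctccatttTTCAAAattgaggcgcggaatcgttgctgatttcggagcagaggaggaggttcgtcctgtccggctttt
Prc1: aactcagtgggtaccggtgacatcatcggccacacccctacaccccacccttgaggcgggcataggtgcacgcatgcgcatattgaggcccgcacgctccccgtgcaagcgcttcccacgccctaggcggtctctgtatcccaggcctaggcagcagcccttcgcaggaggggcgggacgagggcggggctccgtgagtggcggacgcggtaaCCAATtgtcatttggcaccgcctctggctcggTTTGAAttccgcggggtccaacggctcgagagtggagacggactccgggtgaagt
Cenpf: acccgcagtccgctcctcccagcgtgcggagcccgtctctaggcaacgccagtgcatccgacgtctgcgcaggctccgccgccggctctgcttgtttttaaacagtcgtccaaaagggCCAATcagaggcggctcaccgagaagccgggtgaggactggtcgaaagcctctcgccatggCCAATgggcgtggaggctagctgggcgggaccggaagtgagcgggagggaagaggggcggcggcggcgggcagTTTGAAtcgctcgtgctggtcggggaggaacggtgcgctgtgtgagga
Mcm3: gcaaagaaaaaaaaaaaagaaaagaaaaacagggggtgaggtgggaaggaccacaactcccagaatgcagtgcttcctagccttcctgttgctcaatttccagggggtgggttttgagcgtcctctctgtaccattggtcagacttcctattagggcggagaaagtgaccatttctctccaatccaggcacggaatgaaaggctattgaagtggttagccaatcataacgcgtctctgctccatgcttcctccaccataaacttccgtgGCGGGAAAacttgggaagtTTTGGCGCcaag
Cdt1: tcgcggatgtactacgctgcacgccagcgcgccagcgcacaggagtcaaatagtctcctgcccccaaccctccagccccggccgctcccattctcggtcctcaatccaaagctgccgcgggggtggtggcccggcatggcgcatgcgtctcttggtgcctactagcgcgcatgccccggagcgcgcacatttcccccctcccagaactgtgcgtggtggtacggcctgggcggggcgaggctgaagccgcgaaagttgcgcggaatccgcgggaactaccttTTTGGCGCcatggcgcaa

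The regions are Kif11 chr19:37376132-37376431 (plus strand), Prc1 chr7:80294201-80294500 (plus strand), Cenpf chr1:189688037-189688336 (minus strand), Mcm3 chr1:20820263-20820562 (minus strand), Cdt1 chr8:122567765-122568064 (plus strand). In Kif11, CCAAT lay in reverse with its first printed base at -45 from the start site and CHR in reverse at -19. In Prc1 they lay forward at -37 and -5, and in Cenpf CCAAT lay at -132 and -71 and CHR at 3. Mcm3 held E2F letters at 20 and 39, and Cdt1 at 33. Prc1, a bundler of spindle microtubules, had -4.45 ± 0.16 and Cenpf, of the kinetochore, -4.25 ± 0.10. Mcm3, of the replicative helicase, and Cdt1, which licenses origins, had -4.17 ± 0.26 and -4.16 ± 0.19.

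All 5 genes of D cyclins and their kinases were higher in progenitors, from Cdk6 (-4.52 ± 0.17) and Ccnd1 (-4.21 ± 0.07) to Ccnd2 (-2.18 ± 0.08) and Cdk4 (-0.57 ± 0.05). Of 11 inhibitors and exit genes, 4 were higher in neurons and 6 in progenitors, where 39.6% of all genes were called in each direction. Cdkn1c, which encodes the inhibitor p57, stood at 158, 138, 140.3 and 153 CPM in neurons and 60.8, 64.2, 46.2 and 69.1 in progenitors (1.30 ± 0.21), and Btg1, an anti-proliferative gene, had 1.66 ± 0.21. Cdkn2c, an inhibitor of Cdk4 and Cdk6, was higher in progenitors (-3.96 ± 0.16), as were Btg2 (-3.56 ± 0.09) and Gadd45g (-3.07 ± 0.27).

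Of 17 proneural and early neuronal factors, 10 were higher in neurons and 6 in progenitors, where 39.6% of all genes were called in each direction. Insm1, a zinc finger gene of newborn neurons, stood at 242, 296, 208 and 244 CPM in progenitors and 74.4, 61.0, 63.6 and 53.0 in neurons (-1.97 ± 0.29). Dlx5, Dlx6 and Myt1 were higher in neurons (2.46 ± 0.26, 1.94 ± 0.22 and 1.83 ± 0.22). Sox11 and Sox4, which act in young neurons, had 1.51 ± 0.09 and 0.65 ± 0.08. Dlx1 and Dlx2, which act early in the ventral forebrain, had -0.15 ± 0.17 and 0.06 ± 0.12. Only Dlx1 of these last passed, and its call was lost without null replicate 1 (-0.13) or null replicate 2 (-0.06) and turned to 0.19 with cells thinned to 3000 UMIs.

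Of 16 factors of the MGE lineage, 11 were higher in neurons and 5 in progenitors, beside 39.6% of all genes in each direction. Nkx2-1, which specifies the MGE, stood at 329, 368, 283 and 319 CPM in progenitors and still at 238, 244, 225 and 266 in neurons (-0.42 ± 0.10). Otx2, Olig2 and Nkx6-2 were far higher in progenitors (-5.03 ± 0.07, -4.45 ± 0.24 and -3.94 ± 0.62). Olig1, which oligodendrocyte precursors also make, had -3.92 ± 1.54, and -2.82 without cells with UMIs of other types. Lhx6, which sets the interneuron path, stood at 347, 450.0, 311 and 345 CPM in neurons and 58.4, 80.7, 42.1 and 26.7 in progenitors (2.79 ± 0.51). Lhx8, a factor of cholinergic and other projection neurons, stood at 224, 185, 253 and 309.6 and 28.8, 28.0, 20.4 and 25.7 CPM (3.15 ± 0.40). Maf, a factor of interneurons, had 4.08 ± 0.42, and Zeb2 0.40 ± 0.10. Gbx2 had 4.98 ± 0.38, with 0.237 to 0.776 CPM in progenitors and 7.52 to 20.3 in neurons, so its fold rests on few progenitor UMIs.

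Cells outside the classes, with under 3 UMIs of the progenitor genes, under 5 of the neuron genes and at least 2 of Mki67 and Top2a, were 15.7% to 16.6% of all cells. They are called cells between the classes here and were compared by level, with no test, over 71 genes of the lists on Notch, cell cycle control, neurogenic factors and MGE identity. In all 4 libraries, 18 of these genes were highest between the classes and 3 lowest. The share over all genes tested was not computed, so these counts are not read as a trait of the lists. The cells between the classes were chosen for UMIs of Mki67 and Top2a and for few of Hes1, Hes5 and Nes. Their levels of cell cycle and Notch pathway genes cannot be told apart from that choice. The 8 erythroid genes summed to 6972, 19988, 5619 and 6598 CPM in these cells, against 4718 to 7883 in barcodes with free RNA, and the 8 microglial genes to 40.6 to 121 CPM. Their part in the levels was not tested. Dlx1 stood at 1017, 865, 809.6 and 705 CPM there, with 284 to 509 in progenitors and 282 to 412 in neurons. Dlx2 had a mean of 521 ± 31.8 CPM (SD, n = 4) there, Sp9 431 ± 62.6 and Nkx2-1 531 ± 22.3. St18 was highest there too, at 28.4, 92.5, 50.7 and 70.6 CPM, again with null replicate 2 above the other libraries. Ccnd2 had 1545 ± 89.7 CPM between the classes and 1074 ± 245 in progenitors, while Ccnd1 had 61.7 ± 10.2 and 316 ± 29.0. The Notch ligand Dll3 had 68.7 ± 8.11 CPM there, 41.4 ± 6.77 in progenitors and 21.9 ± 2.40 in neurons. Id4 was lowest there at 43.7 ± 3.47 CPM, with 126 ± 3.88 in progenitors and 159.7 ± 19.0 in neurons, and Id3 and Dlk1 were lowest there as well. The means of Lhx6 and Dlx5 lay in the middle, at 286 ± 95.4 and 189 ± 26.9 CPM.

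**Figure D3:**
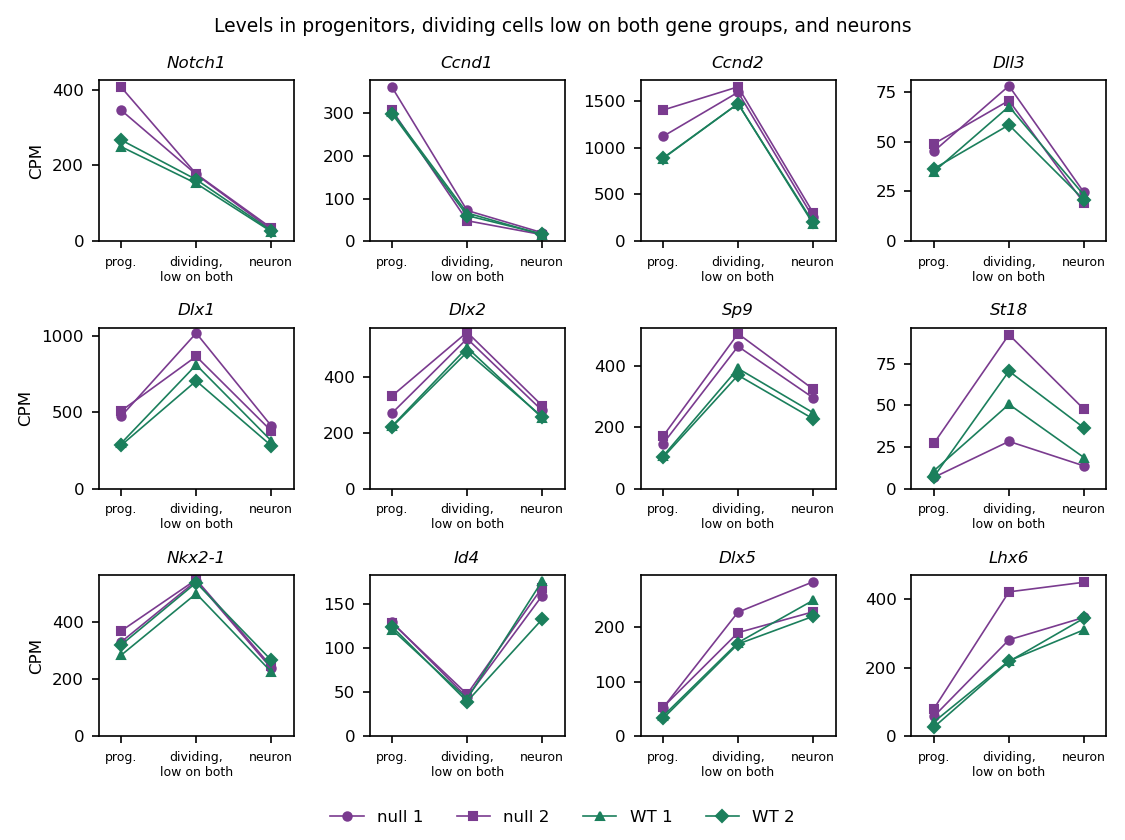
CPM of 12 genes in progenitors, in dividing cells low on both gene groups of the rule, and in neurons, with 1 line per library (purple for null, green for WT). Dlx1, Dlx2, Sp9, St18, Nkx2-1, Ccnd2 and Dll3 are highest in the middle cells in all 4 libraries, and Id4 is lowest there.

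Neurons were higher for the equipment of a GABAergic cell. All 5 GABA genes were higher, with a median of 3.32. Gad2, which makes GABA, stood at 570.1, 590.4, 596 and 528 CPM in neurons and 43.2, 54.5, 42.1 and 29.2 in progenitors (3.74 ± 0.26). Gad1 had 3.34 ± 0.34 and Slc32a1, the vesicular transporter, 3.32 ± 0.29. All 16 vesicle release genes, all 6 peptide genes tested and 25 of 26 cytoskeletal genes were higher in neurons, with medians of 2.13, 4.46 and 2.11. The neuron rule uses Stmn2, Gap43 and Mapt, so the counts of this paragraph cannot be told apart from the choice of cells. Dcx, a microtubule protein of migrating neurons, had 3.63 ± 0.22, the vesicle fusion gene Snap25 2.24 ± 0.31 and the peptide gene Npy 2.93 ± 0.45. Of 27 channel and receptor genes, 22 were higher in neurons and 2 in progenitors, beside 39.6% of all genes in each direction. The AMPA receptor genes differed among themselves, with 4.79 ± 0.74 for Gria1, 1.83 ± 0.10 for Gria2 and -0.47 ± 0.18 for Gria3, whose call was lost with DESeq2. Grin2b, an NMDA receptor subunit, had 2.91 ± 0.59 and Scn3a, a sodium channel, 4.32 ± 0.51.

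Of 23 migration and guidance genes, 21 were higher in neurons and 1 in progenitors, beside 39.6% of all genes in each direction. The median of the 23 was 2.92. Erbb4, the neuregulin receptor of migrating interneurons, stood at 182, 269, 147 and 182 CPM in neurons and 13.6, 25.6, 11.2 and 10.1 in progenitors (3.66 ± 0.28). Nrp2, a semaphorin receptor, had 4.37 ± 0.21 and Nrxn3, an adhesion gene of synapses, 2.92 ± 0.34. Of the receptors for Cxcl12, Ackr3 had 0.97 ± 0.36 and Cxcr4 did not pass (0.42 ± 0.55). Cxcr4 passed at 0.57 without WT replicate 2, but turned to -0.64 with cells thinned to 3000 UMIs. Epha4, an ephrin receptor, stood at 417 to 691 CPM in neurons and 210.4 to 428 in progenitors (0.74 ± 0.16).

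Of 15 chromatin genes, 12 were higher in progenitors and 2 in neurons, beside 39.6% of all genes in each direction. The neuron rule limits Mki67 and Top2a, so these counts cannot be told apart from the choice of cells. The 15 genes summed to 9254 to 10402 CPM in progenitors with at least 2 UMIs of Mki67 and Top2a. They summed to 4525 to 5846 CPM in progenitors with no such UMI and to 3188 to 3573 in neurons. Hmga2, a high mobility group gene, had -4.26 ± 0.60 and Uhrf1, which maintains DNA methylation, -3.73 ± 0.21. Of 20 RNA-binding genes, 15 were higher in neurons and 5 in progenitors, beside 39.6% of all genes in each direction. Celf4 had 3.21 ± 0.12. Rest, the repressor of neuronal genes, had -1.79 ± 0.42.

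Related genes were compared in 19 pairs. In 14 the first was higher in progenitors and the second in neurons, in pairs written with that order in mind. Actl6a, the progenitor form of the BAF subunit, stood at 198, 160.0, 169 and 154 CPM in progenitors and 106, 82.5, 91.9 and 91.3 in neurons (-0.88 ± 0.06). Actl6b stood at 6.29, 4.92, 3.88 and 5.90 and 149, 131, 148 and 150.3 CPM. Ss18 and Ss18l1, another pair of BAF subunits, had -1.35 ± 0.11 and 2.18 ± 0.18, and the splicing repressors Ptbp1 and Ptbp2 -1.86 ± 0.14 and 0.44 ± 0.05. Dnmt1, the maintenance methyltransferase, had -1.24 ± 0.02 and the de novo enzyme Dnmt3a 0.73 ± 0.09. Both are of the chromatin list, whose counts cannot be told apart from the choice of cells. The alpha-tubulins Tuba1b and Tuba1a had -2.10 ± 0.05 and 1.91 ± 0.07, and are uncertain as close copies that may share reads. Marcksl1 and Marcks went the other way (0.67 ± 0.03 and -0.52 ± 0.06). Tubb5 with Tubb3 and Stmn1 with Stmn3 were both higher in neurons, and Ccnd1 with Ccnd2 and Msi1 with Msi2 both higher in progenitors.

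**Figure D4:**
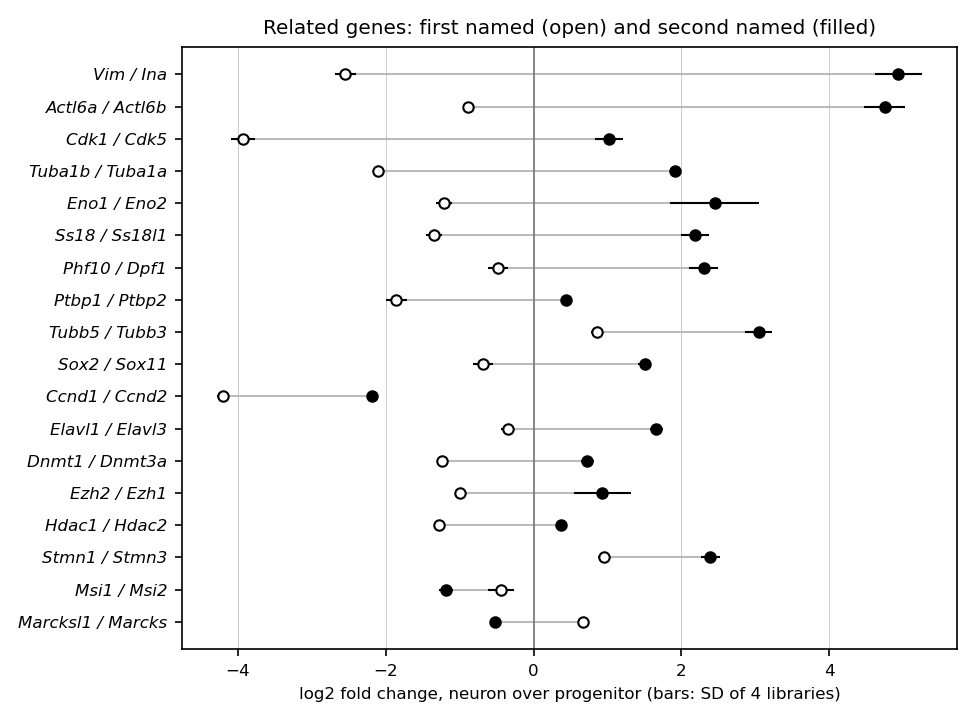
Log2 fold change of neuron over progenitor for 18 of the 19 pairs of related genes, open for the first and filled for the second, with bars for the SD of 4 libraries. In 13 of the 18 pairs the open point lies left of 0 and the filled point right of it.

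Among metabolic genes, all 8 genes of serine and one-carbon metabolism were higher in progenitors, with a median of -2.68. Phgdh, the first enzyme of serine synthesis, stood at 368, 255, 351 and 361 CPM in progenitors and 22.9, 14.4, 14.7 and 19.6 in neurons (-4.23 ± 0.28), and Psat1, the next enzyme, had -4.00 ± 0.12. Of 14 glycolysis genes, 9 were higher in progenitors and 5 in neurons, beside 39.6% of all genes in each direction. Ldha and Ldhb, subunits of lactate dehydrogenase, had -3.06 ± 0.15 and 0.19 ± 0.06, and the enolases Eno1 and Eno2 -1.21 ± 0.10 and 2.45 ± 0.60. Of 14 cholesterol synthesis genes, 5 were higher in each class, near the share over all genes, and 3 were higher in neurons in the WT libraries alone. Of 80 ribosomal protein genes, 78 were higher in progenitors (40 with no replicate block) with a median of -0.38, and 3 reached 2-fold, among them Rps27l (-1.42 ± 0.06). Of 13 mitochondrial transcripts, 9 were higher in neurons and 2 in progenitors, beside 39.6% of all genes in each direction. The median of the 13 was 0.13, and none reached 2-fold. With no replicate block, 0 were called higher in neurons. These transcripts summed to 31543 to 40074 CPM in progenitors, 35779 to 44534 in neurons and 68501 to 84982 in barcodes with free RNA. Of 7 immediate early and heat shock genes tested (13 listed), 4 were higher in progenitors and 1 in neurons, beside 39.6% of all genes in each direction.

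**Figure D5:**
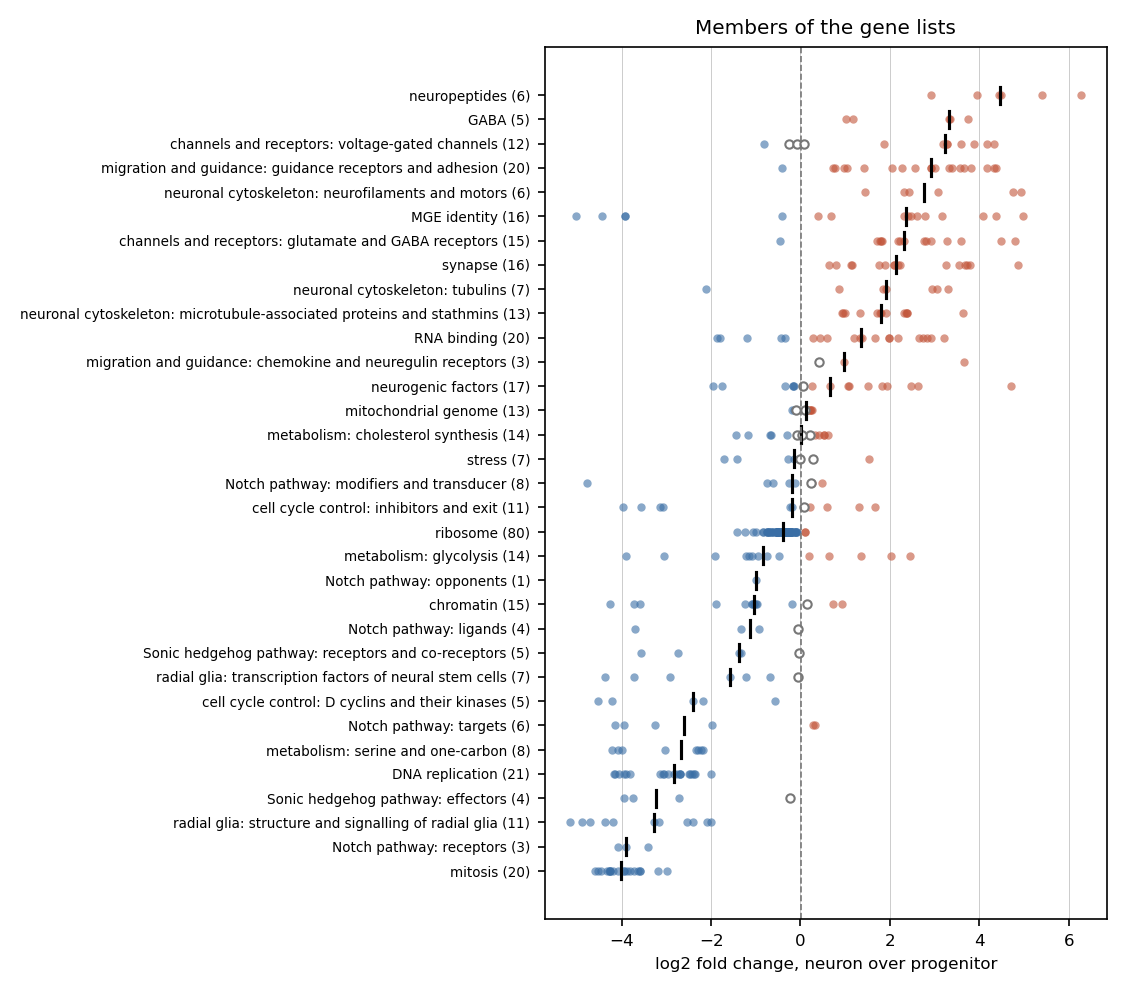
Log2 fold change of neuron over progenitor for each gene tested (point), by list with the number tested, with black bars for medians. Red and blue points passed the test as higher in neurons and in progenitors, open points did not pass, and the dashed line is the median of all genes, 0.02.

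Markers of other regions were also counted and tested. At least 3 UMIs of the 10 genes of the lateral ganglionic eminence and striatum were in 68.1% to 81.6% of progenitors and 23.5% to 37.6% of neurons, although their summed level was 584 to 814 CPM in progenitors and 780.2 to 1406 in neurons. Meis2, a homeobox gene of that list, gave 383 to 564 CPM of the progenitor sum. At least 3 UMIs of the 4 genes of the caudal eminence were in 9.60% to 24.3% of progenitors and 4.74% to 19.2% of neurons. These shares are not matched for depth, and no order is read from them. Of 7 genes of the lateral ganglionic eminence and striatum, 5 were higher in neurons, among them Ebf1 and Isl1 (3.01 ± 0.48), and 1 in progenitors. Of 4 genes of the caudal eminence 3 were higher in neurons, but 1 with cells thinned to 3000 UMIs and 1 in WT alone. Over all genes, 39.6% were called in each direction. Emx2 (-2.11 ± 0.43) was the 1 gene of 10 of the pallial lineage that passed the filter on low counts, and none of 8 microglial genes passed it. Of 5 haemoglobin genes tested, 4 were higher in progenitors. Hbb-bs stood at 389, 420.5, 3289 and 1294 CPM in progenitors, 41.9, 43.2, 52.0 and 599.9 in neurons and 1807 to 2817 in barcodes with free RNA (-3.30 ± 2.01). Without cells with UMIs of other types, Hbb-bs turned to 0.65 and Hba-a1 from -2.84 to 0.72. Haemoglobin genes are close copies that may share reads.

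Gene span was set beside the classes as a description. Spans came from the GENCODE M21 annotation (GRCm38) for 12510 of the 12512 genes. The genes were ordered by span into 5 groups of 2502. In the group with the longest spans, from 77.0 kb, 28.7% of genes were at least 2-fold higher in neurons, against 11.7% to 16.3% in the other 4 groups. The share at least 2-fold higher in progenitors was 17.7% to 18.4% across the groups. The median span was 35.6 kb for genes at least 2-fold higher in neurons, 24.3 kb for those in progenitors and 24.4 kb for all.

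Whether the change from progenitor to neuron differed between null and WT was tested by the class by genotype term. Of 12512 genes, 8 passed at an adjusted p under 0.05 (0.0639%), and 909 had an unadjusted p under 0.05. The count depended on the processing, with 0 genes by DESeq2, 0 with no replicate block, 1 at no more than 5% mitochondrial UMIs, 2 with cells thinned to 3000 UMIs, 3 with stricter limits of the rule and 127 with no filter on low counts. Among the 8, the neuron over progenitor change was lower in null for Lhx8, Zic1, Dlx6os1, Mir124a-1hg and Tubb3 and higher for Ebf1 and Itm2a. Lhx8 had log2 changes of 2.97 and 2.78 in the null and 3.57 and 3.54 in the WT libraries, a difference of -0.68 (adjusted p = 0.0297, edgeR). Zic1, a zinc finger gene of ventral forebrain neurons, stood at 100.2, 101, 106 and 173 CPM in neurons and 23.5, 21.6, 12.6 and 20.8 in progenitors, a difference of -0.83. Tubb3 had a difference of -0.30 and Mir124a-1hg, the host transcript of a neuronal microRNA, of -0.59. Dlx6os1, which lies antisense to Dlx6, had -0.74, and whether the counting used strand is not given in the sources used here. Ebf1 had log2 changes of 6.26 and 6.89 in the null and 5.37 and 4.46 in the WT libraries, a difference of 1.48. The 10 genes of the lateral ganglionic eminence and striatum, Ebf1 among them, summed to 1379, 1406, 1331 and 780.2 CPM in neurons, lowest in WT replicate 2, where Ebf1 (281 CPM) and Isl1 (106 CPM) were lowest as well. The part of these sums in the difference was not tested. Itm2a, a membrane protein gene, stood at 27.2, 12.2, 13.9 and 14.97 CPM in neurons and 18.4, 12.1, 19.4 and 35.1 in progenitors, a difference of 1.33. It was 0.62, and no longer called, without cells with UMIs of other types, and 0.49, also not called, without the 5% of cells with most UMIs. Its call was lost as well without null replicate 1 (0.90) or WT replicate 2 (0.95). The progenitors of WT replicate 2, where Itm2a was highest, also held the most endothelial (96.5 CPM) and pericyte and meningeal (82.0 CPM) RNA among the progenitor sums. DESeq2 gave 129 genes at an unadjusted p under 0.05, and the fit with no replicate block 293. Without null replicate 2, the library whose St18 level goes against its label, 6 genes were called, of which 2 were among the 8. The differences that lost their call then were near those with all libraries for Lhx8 (-0.65), Tubb3 (-0.31), Mir124a-1hg (-0.63) and Dlx6os1 (-0.70), and 1.18 for Ebf1. Without WT replicate 1, the calls of Lhx8 (-0.66), Mir124a-1hg (-0.53) and Tubb3 (-0.27) were lost. Without null replicate 1, WT replicate 1 or WT replicate 2, 115, 58 and 30 genes were called, of which 7, 5 and 7 were among the 8.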

How the data were processed

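Single-cell RNA of e14.5 mouse MGE was measured by 10x Genomics in 4 libraries. The deposited files hold raw UMI counts per gene and barcode over all barcodes, made by the authors with Cell Ranger (5.0.1 on GRCm38 per the submitters' processing notes, while the file header names Cell Ranger 4). Cells were chosen by the 8-gene rule, and counts were summed per library and class (8 sums). Genes passing edgeR's filterByExpr were tested with edgeR 4.0.16 (TMM, quasi-likelihood, library as a block, R 4.3.3), and genotype by an interaction term. The 8 genes of the rule stayed in the fit but were left out of tests and counts. The pairing comes from both classes of a library sharing 1 pool. Python 3.11.15 with numpy 2.4.6 and scipy 1.17.1 did the remaining steps, and the test was tried on simulated data.

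Named genes are the 15 with the largest change in each direction among those called, with 1 sign in all 4 libraries and at least 50 CPM as the mean of the higher class. Genes of the rule, mitochondrial genes and unnamed gene models were left out. Members of gene lists and pairs, St18 and genes called for genotype were also named. The members and lists were chosen with earlier results of these data known. Replicate numbers follow accession order and pair no samples across genotypes. Alternatives were other size factors (RLE, or total UMIs), DESeq2 1.42.0, no filter, no block, each library left out, each genotype alone, cells thinned to 3000 UMIs, another UMI minimum, stricter limits, 5% mitochondrial UMIs, and leaving out the 5% deepest cells. Leaving out cells with UMIs of other types, and counting 2-fold calls, were chosen after seeing the data. The results of a few named genes are not reported here.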

Additional observations from a re-analysis of the deposited data

Results flagged for a closer look

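Among 155 genes checked for a library far from the other 3, 5 had one, and chance alone flags about 1 in 20 groups. The log2 fold change of neuron over progenitor was 3.34 for Plk2 in WT replicate 2 (others 4.89 to 5.10) and -4.63 for Esco2 in null replicate 1 (others -5.67 to -5.59). It was 3.97 for Gad1 in WT replicate 2 (others 3.26 to 3.32), -2.86 for Pcna in WT replicate 1 (others -2.65 to -2.62) and -0.48 for Elavl1 in WT replicate 1 (others -0.33 to -0.30).

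The log2 change differed between null and WT by the interaction term for 8 genes. Among these the difference, null minus WT, was -0.74 for Dlx6os1, -0.68 for Lhx8, -0.59 for Mir124a-1hg, -0.30 for Tubb3 and -0.83 for Zic1. It was 1.48 for Ebf1 and 1.33 for Itm2a. Adjusted p-values (edgeR) lay between 0.0164 and 0.0485. The count was 0 with DESeq2, 0 with no replicate block, 1 at no more than 5% mitochondrial UMIs and 2 with cells thinned to 3000 UMIs.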

How the results depend on the processing

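The counts of genes called between the classes stayed within 1.5 times of 4949 and 4957 under all alternatives run, and were 4590 to 4913 and 4670 to 4920 with 1 library left out. The 8 genes called for genotype became 16 with RLE size factors, 40 with total UMIs, 0 with DESeq2, 127 with no filter and 0 with no replicate block. They became 2 with thinned cells, 3 with stricter limits, 27 without the deepest cells, 1 at 5% mitochondrial UMIs and 20 without cells with UMIs of other types, and were 6 to 115 with 1 library left out. The cause was not tested.

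With no replicate block, where library is not paired, the counts higher in progenitors were 3 for Notch modifiers, 40 for ribosomal proteins, 1 for erythroid and 1 for pericyte genes, and 0 mitochondrial transcripts were higher in neurons. With WT alone, they were 3 for Notch modifiers, and 3 cholesterol and 1 caudal eminence genes were higher in neurons. With thinned cells, Sonic hedgehog had 4 (effectors 1) and the caudal eminence 1, and erythroid, endothelial, pericyte and oligodendrocyte precursor lists had 0. Stricter limits gave 0 for the last 3. At 5% mitochondrial UMIs, and without cells of other types, endothelial and pericyte lists had 0 and the precursor list 1, and erythroid had 0 in the latter. Without the deepest cells the pericyte list had 0 and the precursor list 1. DESeq2 gave 1 pericyte gene, and leaving out 1 library 1 to 2. The depth ratio of the classes was 1.62 at 5% mitochondrial UMIs.

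Signs turned for 7 genes, all but Dlx1, Hbb-bs and Hba-a1 uncalled. Pax6 had 0.16 with DESeq2, 0.64 without null replicate 2, 0.57 with stricter limits, 0.0677 at 5% mitochondrial UMIs and 0.93 in WT alone, and ranged from -0.36 to 0.64 with 1 library left out. Dlk1 had 0.22 in null alone, 0.0139 without cells of other types and -0.36 to 0.12 with 1 library left out (0.12 without WT replicate 1, 0.0173 without WT replicate 2). Dlx1 had 0.19 thinned, 0.13 with stricter limits and 0.0062 in WT alone. Dlx2 had -0.0021 thinned and -0.0481 in null alone, and Cxcr4 -0.64 thinned. Hbb-bs had 0.72 thinned and 0.65 without cells of other types, and Hba-a1 0.25 and 0.72. Depth limits genes of a few CPM, since the smallest progenitor sum held 2879732 UMIs.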
